A study of Sus scrofa with 13 samples.

Results

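A set of 10 genes of the histone lysine methyltransferase family were followed in the loin muscle (longissimus lumborum) of 13 female pigs aged 6 months. They were SETD2 and 9 relatives (NSD1, ASH1L, KMT2A, KMT2C, KMT2E, SETD7, SMYD1, EZH1 and EZH2). The members were chosen by symbol with earlier results of these data known, so the number of members called is a description and not independent evidence. All 10 were found among the 25322 Ensembl genes counted in both breeds. Their gene names came from the deposited annotation for 6 members and from a table of reference names for the other 4. The pigs were of the Hampshire breed (3 with high and 3 with low loin weight) or the Pietrain breed (4 with high and 3 with low loin weight). Each pig gave 1 RNA library of the whole muscle, taken right after slaughter, so fewer cells of a type and less RNA per cell cannot be told apart. The comparison asked which genes differ between muscle of heavier and lighter loins. SETD2 had been singled out by the study from these same pigs, so its values are a description and not independent evidence. The study listed SETD2 as differing in both breeds, with negative fold changes, while its discussion described a rise in pigs with more muscle. In the fits of each breed given below, SETD2 was called lower in Hampshire and was not called in Pietrain.

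Histone lysine methyltransferases add methyl groups to lysines of the histone tails around which DNA is wound. Methylation of H3K36 lies over transcribed gene bodies, methylation of H3K4 marks promoters and enhancers of active genes, and methylation of H3K27 by the Polycomb repressive complex PRC2 holds genes silent. In skeletal muscle the balance of H3K27 and H3K4 methylation accompanies the passage from dividing myoblasts to fibres, and SMYD1 is needed for the assembly of the contractile apparatus.

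The total of counted reads ranged from 11312755 to 20134612 per pig. The 10 most abundant genes took 31.18% to 37.66% of the counts in Hampshire and 26.37% to 29.76% in Pietrain. Levels are given as CPM, counts scaled to library size after TMM normalization over all 13 pigs, and are not divided by transcript length, so they are compared between pigs and not between genes. Log2 fold changes are high against low loin weight from an edgeR fit of the breed, with the standard error (SE) and a p-value adjusted over all genes tested. A gene was called at an adjusted p-value under 0.05 with a fold change of at least 1.2. An exact two-sided permutation test cannot give a p-value below 0.1 for 3 against 3 pigs or below 0.0286 for 4 against 3.

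In Hampshire, 9 of the 10 members were called, all of them lower in pigs with high loin weight, where 26.6% of the 12228 genes tested were called and 14.6% were called lower. The median log2 fold change of the members was -1.26, and that of all genes was 0.03. The falls were larger than 4-fold for KMT2A, KMT2C, SETD7 and SMYD1, and larger than 2-fold for 6 members in all. EZH2 was the exception, with higher values in the pigs with high loin weight that did not pass the test. High and low pigs did not overlap for any of the 10 members, 9 of them lower and 1 higher in the high group, whereas 45.9% of all genes had groups that did not overlap and 23.4% had them lower.

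**Figure D1:**
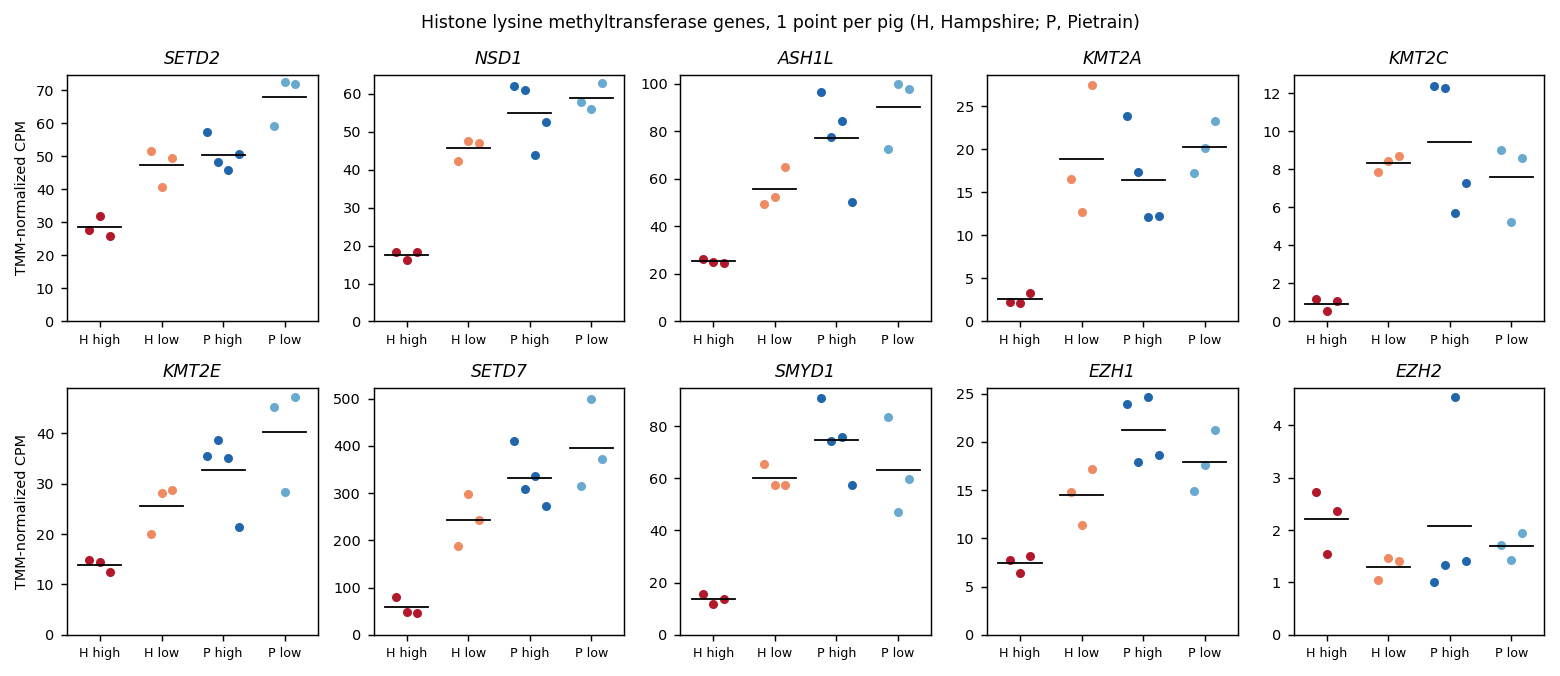
TMM-normalized CPM of the 10 members in each pig, with 1 point per pig, 1 panel per gene with its own linear axis from 0, and a line at the mean of the group (H, Hampshire with 3 high and 3 low pigs, and P, Pietrain with 4 high and 3 low pigs). The Hampshire high pigs lie below all other pigs for each member except EZH2, in which a single Pietrain high pig reaches 4.54 CPM.

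SETD2 (ENSSSCG00000011332, chromosome 13 of Sscrofa10.2, 33143399 to 33230081) travels with elongating RNA polymerase II and lays down trimethylation of H3K36. It stood at 27.8, 31.9 and 25.8 CPM in the Hampshire high pigs 8, 9 and 10, and at 51.7, 40.6 and 49.5 CPM in the low pigs 1, 2 and 3. The highest high pig was thus below the lowest low pig. SETD2 fell by 0.74 on the log2 scale (SE 0.166, edgeR adjusted p = 0.0146, exact permutation p = 0.1), a 1.66-fold lower level. This was the smallest fall of the 9 called members, and the other 8 all fell further. The call was lost without low pig 3 (log2 fold change -0.71, edgeR adjusted p = 0.0629) and without high pig 10 (-0.68, edgeR adjusted p = 0.0597).

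NSD1 (ENSSSCG00000014044, chromosome 2, 82120288 to 82214175) and ASH1L (ENSSSCG00000006508, chromosome 4, 103140714 to 103276718) place 1 or 2 methyl groups on H3K36, NSD1 broadly and ASH1L at developmental genes kept active by Trithorax proteins. NSD1 was at 18.2, 16.3 and 18.3 CPM in the Hampshire high pigs and at 42.4, 47.5 and 47.1 CPM in the low pigs. The low pigs were all over 2-fold above the high pigs. NSD1 was 2.6-fold lower (log2 fold change -1.38, SE 0.148, edgeR adjusted p = 0.00149). ASH1L was at 26.4, 25.1 and 24.4 CPM in the high pigs and at 49.2, 52.1 and 65.1 CPM in the low pigs. Its 3 high pigs lay closer together than its low pigs, and the level was 2.2-fold lower (log2 fold change -1.13, SE 0.159, edgeR adjusted p = 0.00322).

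KMT2A (ENSSSCG00000023324, chromosome 9, 50880742 to 50910465) and KMT2C (ENSSSCG00000020663, chromosome 18, 5538430 to 5550748) are catalytic subunits of the large complexes that methylate H3K4, KMT2A at promoters such as those of HOX genes and KMT2C mainly at enhancers. KMT2A was at 2.25, 2.18 and 3.33 CPM in the Hampshire high pigs and at 16.5, 12.7 and 27.4 CPM in the low pigs. Its low pigs were spread widely, yet every one was above every high pig. KMT2A was 7.21-fold lower (log2 fold change -2.85, SE 0.333, edgeR adjusted p = 0.00194). KMT2C was at 1.16, 0.545 and 1.09 CPM in the high pigs and at 7.84, 8.46 and 8.69 CPM in the low pigs. This was the largest fall among the members, 8.72-fold (log2 fold change -3.12, SE 0.306, edgeR adjusted p = 0.00118). It rests on few reads, with 6 to 17 counts per high pig against 124 to 174 per low pig. Both genes are known for very long coding sequences, while their models in this annotation span only 29.7 kb and 12.3 kb, and whether the counts cover the whole genes was not tested.

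KMT2E (ENSSSCG00000029082, chromosome 9, 115608962 to 115726916) belongs to the same family by sequence, but its SET domain is thought not to methylate histones. It was at 14.8, 14.4 and 12.5 CPM in the Hampshire high pigs and at 20, 28.1 and 28.7 CPM in the low pigs. Low pig 1 was the nearest to the high pigs. KMT2E was 1.85-fold lower (log2 fold change -0.89, SE 0.185, edgeR adjusted p = 0.0113), and the call was lost without low pig 3 (-0.80, edgeR adjusted p = 0.0539).

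SETD7 (ENSSSCG00000030396, chromosome 8, 93131210 to 93169346) adds a single methyl group to H3K4 and to many proteins other than histones. It was at 80.2, 48.2 and 46.9 CPM in the Hampshire high pigs and at 187, 298 and 242 CPM in the low pigs. High pig 8 was the highest of its group and still far below the low pigs. SETD7 was 4.16-fold lower (log2 fold change -2.06, SE 0.257, edgeR adjusted p = 0.0023).

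SMYD1 (ENSSSCG00000008215) is made in heart and skeletal muscle, where it methylates H3K4 and works with myosin chaperones. The deposited annotation gave no position for it. It was at 15.5, 11.8 and 13.7 CPM in the Hampshire high pigs and at 65.3, 57.3 and 57.5 CPM in the low pigs, with little spread inside either group. SMYD1 was 4.39-fold lower (log2 fold change -2.13, SE 0.169, edgeR adjusted p = 0.001) and ranked 6 by p-value among the 12228 genes.

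EZH1 (ENSSSCG00000017382, chromosome 12, 20307138 to 20327433) and EZH2 (ENSSSCG00000028840, chromosome 9, 120322753 to 120388808) are the alternative catalytic subunits of PRC2. EZH1 is typical of resting and differentiated cells, and EZH2 of dividing cells. EZH1 was at 7.76, 6.36 and 8.19 CPM in the Hampshire high pigs and at 14.8, 11.4 and 17.2 CPM in the low pigs. It was 1.94-fold lower in the high pigs (log2 fold change -0.96, SE 0.214, edgeR adjusted p = 0.0142), but not called without low pig 3 (-0.83, edgeR adjusted p = 0.0678). EZH2 was at 2.72, 1.55 and 2.37 CPM in the high pigs and at 1.04, 1.46 and 1.4 CPM in the low pigs, on 17 to 40 counts per pig. These groups did not overlap, with high pig 9 just above low pig 2, and the log2 fold change of 0.77 (SE 0.34) did not pass (edgeR adjusted p = 0.122). Within each pig, the log2 ratio of EZH2 to EZH1 was on average -1.76 in the high pigs and -3.44 in the low pigs. The difference of 1.68 is free of library scaling, and its exact permutation p of 0.1 is the smallest that 3 against 3 pigs can give.

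**Figure D2:**
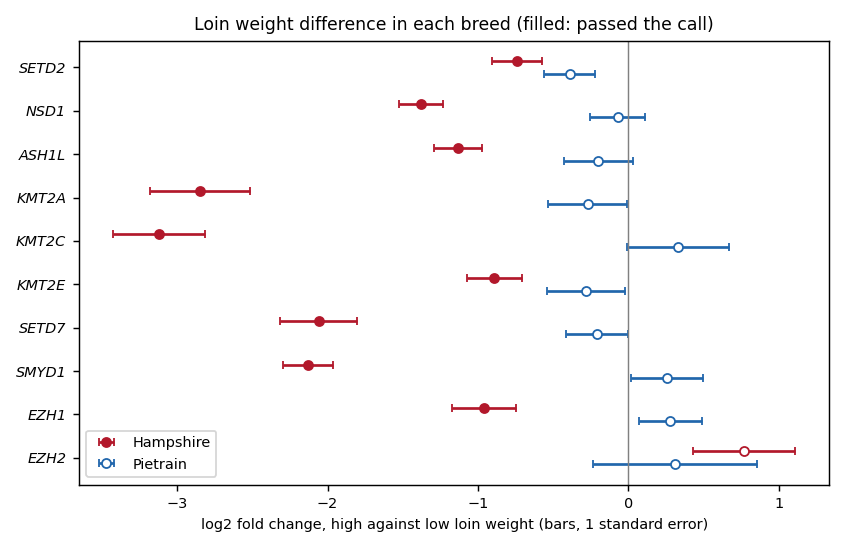
Log2 fold change of each member for high against low loin weight in Hampshire (3 against 3 pigs) and Pietrain (4 against 3 pigs), with bars of 1 SE from the edgeR fits and filled points for called genes. All called values are Hampshire falls, from -0.74 for SETD2 to -3.12 for KMT2C, and the Pietrain values lie between -0.39 and 0.33.

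SETD2 was set beside each relative inside the same pig, as the log2 ratio of the 2 counts with 0.5 added to each, which removes library scaling. In Hampshire the ratio to SETD2 was lower in all high than in all low pigs for NSD1 (difference -0.65), ASH1L (-0.40), KMT2A (-2.08), KMT2C (-2.45), SETD7 (-1.35) and SMYD1 (-1.41). The ratio of EZH2 to SETD2 was higher in the high pigs by 1.46. Each of these 7 differences had an exact permutation p of 0.1, the smallest possible here. For ASH1L the groups were all but tied, with the highest high pig and the lowest low pig both at -0.07 when rounded. The ratios of KMT2E (difference -0.14, exact permutation p = 0.6) and EZH1 (-0.22, exact permutation p = 0.4) to SETD2 overlapped between high and low pigs. These are 9 tests of 1 family, and none can pass an adjustment with 3 pigs per group.

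In Pietrain, none of the 10 members was called, where 0% of 12065 genes were called by edgeR. SETD2 was the 1 member with an unadjusted p-value under 0.05, which 3.3% of all genes had, and DESeq2 called 0 members as well. A log2 fold change below 0 was seen for 6 members, against 47.6% of all genes, and one above 0 for 4, with a median of -0.13 for the members and 0.02 for all genes. SETD2 was also the 1 member whose groups did not overlap, which held for 4.59% of all genes.

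SETD2 was at 57.3, 48.3, 45.8 and 50.6 CPM in the Pietrain high pigs 1, 2, 6 and 7 and at 59.1, 72.5 and 72.1 CPM in the low pigs 3, 5 and 8. The lowest low pig was only just above high pig 1. The log2 fold change was -0.39 (SE 0.17), with an unadjusted p of 0.0431, an adjusted p of 0.939 (edgeR) and an exact permutation p of 0.0571. Over the 4 groups, the mean level of SETD2 was 28.5 ± 3.1 CPM (SD, n = 3) in Hampshire high, 47.3 ± 5.89 (SD, n = 3) in Hampshire low, 50.5 ± 4.93 (SD, n = 4) in Pietrain high and 67.9 ± 7.6 (SD, n = 3) in Pietrain low. Hampshire low and Pietrain high are neighbours in this order whose pigs overlap.

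The other Pietrain values overlapped between high and low pigs. NSD1 ranged from 43.8 to 62.2 CPM in the high pigs and from 56.1 to 62.8 CPM in the low pigs (log2 fold change -0.07, SE 0.184). ASH1L ranged from 50.1 to 96.3 and from 72.3 to 100 CPM (-0.20, SE 0.229), and KMT2A from 12.1 to 23.8 and from 17.2 to 23.3 CPM (-0.27, SE 0.263). KMT2E ranged from 21.4 to 38.7 and from 28.4 to 47.3 CPM (-0.28, SE 0.258), and SETD7 from 273 to 410 and from 314 to 500 CPM (-0.21, SE 0.207). For these 5 genes the mean was lower in the high group, and high and low pigs overlapped.

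KMT2C, the enhancer methyltransferase with the largest Hampshire fall, was at 12.4, 12.3, 5.71 and 7.3 CPM in the Pietrain high pigs and at 9.03, 5.22 and 8.6 CPM in the low pigs (log2 fold change 0.33, SE 0.336). SMYD1 was at 90.7, 74.1, 75.8 and 57.5 CPM in the high pigs and at 83.3, 46.9 and 59.8 CPM in the low pigs (0.26, SE 0.239). EZH1 was at 23.9, 17.9, 24.7 and 18.6 CPM in the high pigs and at 14.9, 17.6 and 21.2 CPM in the low pigs (0.28, SE 0.211). These 3 genes had higher means in the Pietrain high pigs, and the edgeR adjusted p was 0.939 for each. The ratio of EZH1 to SETD2 inside a pig was higher in all 4 high than in all 3 low Pietrain pigs (log2 difference 0.67, exact permutation p = 0.0286, the smallest possible and unadjusted for the 9 ratios tested).

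EZH2 was at 1.01, 1.33, 4.54 and 1.4 CPM in the Pietrain high pigs and at 1.72, 1.42 and 1.95 CPM in the low pigs. High pig 6 stood apart from the other 3, and the log2 fold change of 0.31 (SE 0.546, edgeR adjusted p = 0.947) turned to -0.39 without it. Of the 12 cell cycle and myogenic genes with counts, 10 were also highest in pig 6 of the 4 Pietrain high pigs, as were 34% of all 12065 genes tested, among them TOP2A at 10.9 CPM, CCNB1 at 2.86 CPM, CDK1 at 2.21 CPM and MKI67 at 3.05 CPM, genes of DNA replication and mitosis. In Hampshire, the same 4 genes were not called between high and low pigs (log2 fold change 0.04 for TOP2A, 0.49 for CCNB1, 0.56 for CDK1 and 0.08 for MKI67). These 4 were picked as well-known markers of division after their values were seen.

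**Figure D3:**
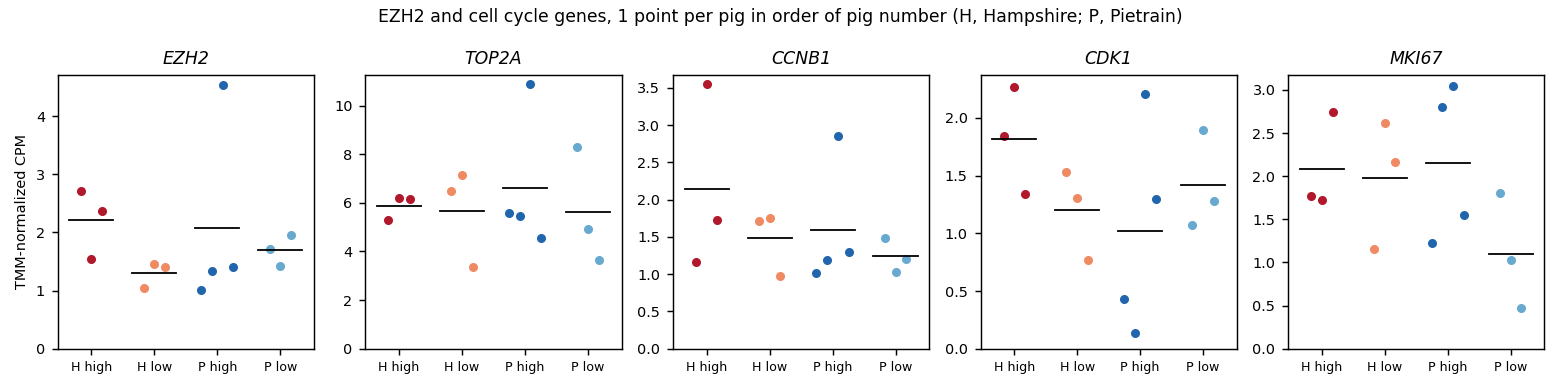
TMM-normalized CPM of EZH2 and of 4 genes of dividing cells in each pig, with 1 point per pig in order of pig number within its group, a line at the group mean, and linear axes from 0 (H, Hampshire and P, Pietrain). Pietrain high pig 6 is the highest of its group in all 5 panels, with EZH2 at 4.54 CPM.

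The difference of the loin weight effect between breeds (Hampshire minus Pietrain) was tested in 1 edgeR fit over the 13 pigs. In this test 5.9% of the 12831 genes tested passed, and 4.22% did so with a more negative effect in Hampshire than in Pietrain. Among the members 6 passed, all in that direction. They were KMT2C (log2 difference -3.43, SE 0.487, edgeR adjusted p = 0.00278), KMT2A (-2.55, SE 0.449, 0.00684), SMYD1 (-2.36, SE 0.309, 0.00251), SETD7 (-1.80, SE 0.357, 0.0117), NSD1 (-1.27, SE 0.229, 0.00751) and EZH1 (-1.20, SE 0.299, 0.0323). The call of EZH1 was lost without Hampshire low pig 3 (edgeR adjusted p = 0.0714), Hampshire high pig 9 (0.0675) or Pietrain low pig 5 (0.0563). The breeds were not shown to differ for SETD2 (log2 difference -0.30, SE 0.23, edgeR adjusted p = 0.478), KMT2E (-0.58, SE 0.342, 0.345) or EZH2 (0.49, SE 0.692, 0.737). ASH1L (-0.90, SE 0.308, edgeR adjusted p = 0.101) passed only without Pietrain high pig 7 (-1.06, 0.0233).

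In the average of the effects in both breeds, from the same fit, 8 members were called lower with high loin weight, where 10.7% of all genes were called and 7.71% lower. SETD2 fell by 0.58 on the log2 scale (SE 0.115, edgeR adjusted p = 0.00875, not called with the trend on gene span taken out), less than KMT2A (-1.58), KMT2C (-1.41), SETD7 (-1.15), SMYD1 (-0.95), NSD1 (-0.74) and ASH1L (-0.68). KMT2E (-0.59, edgeR adjusted p = 0.0406) lost its call in 8 of 13 fits with 1 pig removed, its log2 values there staying between -0.61 and -0.51. EZH1 (-0.35, edgeR adjusted p = 0.132) and EZH2 (0.53, edgeR adjusted p = 0.335) were not called. The loin weight effect of KMT2A, KMT2C, SETD7, SMYD1 and NSD1 differed between the breeds, so their averages describe neither breed alone. In Pietrain alone, KMT2C (0.33) and SMYD1 (0.26) were above 0. KMT2A (-0.27), SETD7 (-0.21) and NSD1 (-0.07) were below 0 there, and none of them was called.

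Between the breeds, the members differed most among pigs with high loin weight. There 9 members were lower in Hampshire than in Pietrain high pigs, where 46.8% of all genes were called and 24.2% lower. The log2 differences ran from -0.83 for SETD2 (SE 0.161, edgeR adjusted p = 0.00106) through -1.64 for NSD1 and -2.44 for SMYD1 to -3.30 for KMT2C (SE 0.369, edgeR adjusted p = 2.31e-05). EZH2 was the 1 member not called (0.10, edgeR adjusted p = 0.873).

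Among pigs with low loin weight, 2 members were lower in Hampshire, where 17.9% of all genes were called and 10.1% lower. They were SETD2 (log2 difference -0.52, SE 0.168, edgeR adjusted p = 0.0449) and ASH1L (-0.70, SE 0.224, 0.0438), and both were close to the threshold. The count fell to 0 in 10 of 13 fits with 1 pig removed, all but those without Pietrain low pig 3 or without Pietrain high pig 6 or 7. The H3K4 enzymes KMT2A (-0.10, edgeR adjusted p = 0.833) and KMT2C (0.13, 0.802) and the muscle protein SMYD1 (-0.08, 0.824) differed by less than 1 SE (0.309, 0.325 and 0.219). Breed and separate handling of the breeds cannot be told apart in this design, and all these comparisons share pigs.

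Gene span, from the start to the end of a gene in the deposited annotation, moved with the Hampshire difference across all genes. The median log2 fold change was 0.38 for genes under 10 kb, 0.04 from 10 to 30 kb, -0.25 from 30 to 100 kb and -0.34 over 100 kb (Spearman's rho -0.386 over 9945 genes, a description, since genes are not replicates). In Pietrain rho was -0.0893. SETD2 spans 86.7 kb, NSD1 93.9 kb, ASH1L 136 kb, KMT2E 118 kb, EZH2 66.1 kb, SETD7 38.1 kb and EZH1 20.3 kb. The models of KMT2A and KMT2C, short for these genes, span 29.7 kb and 12.3 kb.

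With each library's trend on gene span taken out, SETD2 was no longer called in Hampshire (log2 fold change -0.36, edgeR adjusted p = 0.144). KMT2E was not called either (-0.50, edgeR adjusted p = 0.0763), while EZH2 was called higher (1.10, edgeR adjusted p = 0.0327). ASH1L stayed called at a smaller fall of -0.75. SMYD1 could not be fitted without a span, and of the 9 other members 6 were called lower and 1 higher in this fit, where 23.3% of 9945 genes were called. The 6 include KMT2A (-2.72) and KMT2C (-3.24), which were adjusted by the spans of their short models. Their calls here therefore do not show how they stand against their full spans. With this offset SETD2 was also not called between the breeds at high loin weight (-0.31, edgeR adjusted p = 0.136), at low loin weight (-0.31, 0.206) or in the average of both breeds (-0.36, 0.0704). The part of gene span in the SETD2 difference was not tested further.

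**Figure D4:**
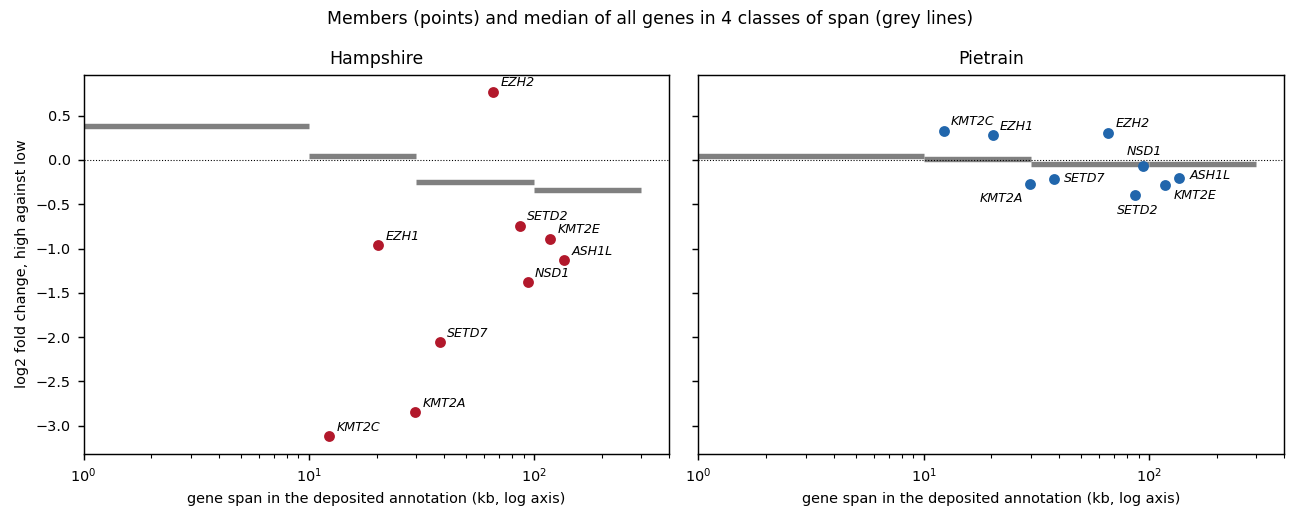
Log2 fold change for high against low loin weight of the 9 members with a position, against gene span in kb on a log axis, in Hampshire and in Pietrain, with grey lines at the median of all tested genes in 4 classes of span (under 10, 10 to 30, 30 to 100 and over 100 kb). In Hampshire 8 of the 9 members lie below the line of their class and EZH2 lies above it.

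Among genes with a symbol, those with levels most like SETD2 over the 13 pigs, by Pearson's r of log2 CPM, were WAC (r = 0.972, Spearman's rho 0.923), NAA15 (r = 0.964), NUP153 (r = 0.962), ESCO1 (r = 0.962) and RASSF8 (r = 0.956). Their Hampshire log2 fold changes lay between -1.43 (ESCO1) and -0.70 (WAC). The 4 groups stand apart, so r was also taken after each group mean was subtracted, and it was then 0.874 for WAC and between 0.678 and 0.734 for the other 4. By that measure the closest genes with a symbol were CCDC136 (r = 0.907), POLR2H (r = 0.907), FKBP5 (r = 0.904), SNAPIN (r = 0.901) and PRP4K (r = 0.898). Without the subtraction, r over the 13 pigs was 0.898 for PRP4K but only 0.333 for CCDC136, 0.215 for POLR2H, 0.0721 for FKBP5 and -0.511 for SNAPIN. In the ranking, 3 genes without a symbol were passed over in the first measure and 1 in the second. Among the members, r with SETD2 over the 13 pigs was highest for ASH1L (0.911) and lowest for EZH2 (-0.376). With group means subtracted it ran from -0.569 for EZH2 to 0.439 for KMT2A. These values were chosen as extremes out of 12830 genes and carry no test.

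Other chromatin genes were counted in the same way in Hampshire. Of 3 further H3K36 methyltransferases, 1 fell (NSD3, log2 fold change -1.09), and the median was -0.13. Of 5 further H3K4 methyltransferases, 2 fell (KMT2D -0.79 and SETD1B -0.94), with a median of -0.31. Of 7 enzymes for H3K9, H3K79 and H4K20, 3 fell (SUV39H2 -0.66, DOT1L -0.68 and KMT5A -0.83), with a median of -0.66. Of 6 other SET domain genes, 1 fell (SETD5, -0.72), with a median of -0.30. None of these genes rose, and the lists are too small for their shares to be read against the 14.6% of all genes called lower.

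Partners of the members were mixed in Hampshire, where 14.6% of all genes were called lower and 12% higher. Of 8 tested PRC2 subunits and accessory proteins other than EZH1 and EZH2, 2 fell, the core subunit SUZ12 (log2 fold change -1.24) and the targeting protein JARID2 (-1.35), with a median of -0.18. Of 10 subunits of KMT2 complexes, RBBP5 fell (-1.38) and WDR5 rose (0.62), both of which belong to the shared core, and the median was 0.02. Of 8 readers of H3K36 methylation and SETD2 partners, 4 fell, among them ZMYND11 (-1.35), which reads H3K36 trimethylation, SUPT6H (-0.60) and POLR2A (-1.40), the large subunit of RNA polymerase II. Their median was -0.50. The chaperone genes UNC45B (-0.40, edgeR adjusted p = 0.0823) and STIP1 (-0.69, edgeR adjusted p = 0.057) did not pass. NACA, listed here with the SMYD1 partners, rose (0.67), as the 1 called gene of 5 with a median of -0.40. The counts are per gene, so which transcript form of NACA rose cannot be told.

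Demethylases take methyl groups off the same lysines. Of 18 histone lysine demethylases, 10 fell in Hampshire and 0 rose, with a median of -0.61, led by KDM7A (-2.40), KDM5A (-1.45) and KDM3B (-1.06). Of the 12 cell cycle and myogenic genes tested, 2 rose (CCND3 at 0.81 and CDK4 at 0.73) and 0 fell, with a median of 0.05. Of all genes, 14.6% were called lower and 12% higher in Hampshire, so the rises among the cell cycle genes are near the share of all genes. In Pietrain, 0 genes of these lists were called by edgeR.

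**Figure D5:**
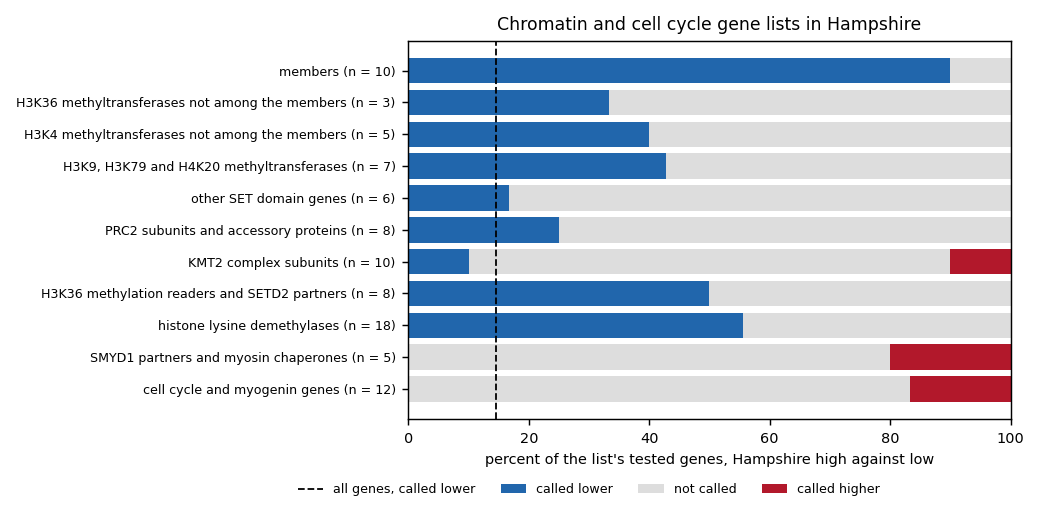
Percent of the tested genes of each chromatin or cell cycle list that were called lower, called higher or not called in Hampshire (3 high against 3 low pigs), with the number tested after each name and a dashed line at the 14.6% of all genes called lower. The members reach 9 of 10 called lower, the demethylases 10 of 18, and the cell cycle genes 0 of 12.

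Markers of cell types also differed between the Hampshire groups, where 12% of all genes were called higher and 14.6% lower. Muscle fibre markers were abundant in every library, with a summed CPM of 176000 to 253000 in Hampshire high, 141000 to 212000 in Hampshire low and 104000 to 174000 in Pietrain pigs with high and 122000 to 143000 with low loin weight. Of 13 listed muscle fibre markers 7 matched, with MYH2 and MYH4 among those that did not. In Hampshire 2 of the 7 rose (CKM 0.98 and MYH7 1.17) and 2 fell (NEB -1.29 and MYH1 -1.25), with a median of 0.66. High and low pigs overlapped for MYH7 (edgeR adjusted p = 0.0469). Of 5 fibroblast and matrix markers, 3 rose (median 1.44), and their summed CPM was 1870 to 4850 in Hampshire high against 732 to 1570 in Hampshire low pigs. Of 5 macrophage and leukocyte markers, 2 rose (median 1.04, summed CPM 35.2 to 60 against 20.6 to 29.1). Of 2 adipocyte markers, 1 rose (median 1.96, summed CPM 6.74 to 29 against 1.61 to 5.2).

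Of 3 endothelial, 2 blood and 3 satellite cell markers tested, 0 were called by edgeR in Hampshire (medians 0.02, 0.24 and -0.16). None of the matched markers was at 0 in all pigs. The summed level of the 10 members was 157 to 197 CPM in Hampshire high and 456 to 557 CPM in Hampshire low pigs. SETD7 alone gave a mean of 58.4 CPM in the high and 242 CPM in the low pigs, so it weighs heavily in this sum. The sum was lower in the pigs with higher summed CPM of the fibroblast, macrophage and adipocyte markers, not all of which were called. The part of these markers in the falls of the members was not tested.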

How the data were processed

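RNA-seq of longissimus lumborum came from 13 pigs in 4 groups named by breed and loin weight in the labels. The authors deposited whole-number read counts per Ensembl gene for each pig, without normalization. Libraries were run in technical repeats, and the table holds 1 column per pig. The submitters' processing notes name FastQC, STAR, RSEM and DESeq2 and the build Sscrofa10.2, and the annotation release and counting settings are not given in the sources used here. The deposited result tables hold fold changes, their errors, statistics and p-values, and of these tables only positions and symbols (unit other) were used. The labels give 4 Pietrain high pigs and all 4 were used. Columns of other samples numbered 0.

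Counts were analysed in R 4.3.3 with edgeR 4.0.16 (quasi-likelihood test, TMM normalization, expression filter by group), separately per breed, and in 1 fit over 13 pigs for the other comparisons, with Benjamini-Hochberg adjustment over all genes. The SE was the log2 fold change over the root of F. For exact permutation tests and ratios, 0.5 was added to each count before scaling and the log2. The scripts were tested on simulated data with 200 changed genes of log2 fold change 1.58 and 1 spread set for all genes. There edgeR recovered 68% of them in Hampshire, 83% in Pietrain and 72% between the breeds at high loin weight. It recovered only 12% in the test of the breed difference of the effect, so a gene not called there may still differ. Pigs of a group differed beyond sampling noise in all 15 pairs. Symbols were given to 13168 genes, 6104 of them from reference names, and 111 of 138 listed symbols matched. The alternatives were DESeq2 1.42.0, its size factors, no filter, at least 10 counts in every pig, an offset for gene span, 1 fit over all pigs, no fold threshold, and each pig left out. All 10 members were named, with at most 3 genes of each list, those of smallest p-value in Hampshire whose groups did not overlap, and the 5 genes with a symbol most like SETD2 in either measure. CCNB1, CDK1, TOP2A, MKI67 and MYH7 were added after their values were seen. The members and lists were chosen with earlier results of these data known. No sequence is shown. Plots were made in Python 3.11.15 with matplotlib 3.10.9.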

Additional observations from a re-analysis of the deposited data

Results flagged for a closer look

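EZH2 in the Pietrain high pigs was singled out because pig 6, at 4.54 CPM, stood apart from the other 3 pigs, with a gap of 0.89 of the range of the group, above the critical value of 0.829 for 4 pigs. This was 1 flag in 10 tests, 1 for each member in these same 4 pigs, so the tests are not independent. Chance flags a share of about 0.05 of such tests. A further 6 members were singled out because their loin weight effect differed between the breeds in the edgeR fit over 13 pigs. The difference, Hampshire minus Pietrain on the log2 scale, was -3.43 for KMT2C, -2.55 for KMT2A, -2.36 for SMYD1, -1.80 for SETD7, -1.27 for NSD1 and -1.20 for EZH1.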

How the results depend on the processing

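In Hampshire the number of members called was 9 and ranged from 6 to 9 with each pig left out (6 without low pig 3) and from 7 to 9 under the other alternatives. SETD2 ranged from -0.85 to -0.68 with each pig left out and was -0.36 with the gene span offset, in which it was not called. In Pietrain 0 members were called under every alternative run, while the log2 fold change of NSD1 ranged from -0.13 to 0.04 and that of EZH2 from -0.39 to 0.56 with each pig left out, both turning in sign without high pig 6. The breed difference of the loin weight effect was called for 5 to 7 members and the breed difference at high loin weight for 7 to 9. The average effect was called for 8 members, and for 5 with the span offset. At low loin weight, 2 members differed between breeds by edgeR, 4 by DESeq2, 0 with no filter, 0 with the span offset, and 0 to 3 with each pig left out. The background over all genes moved too. The 3256 genes called in Hampshire became 1224 (9.8%) without low pig 3, and DESeq2 called 1 gene in Pietrain against 0. The 757 genes with a breed difference of the effect became 1242 with DESeq2, 483 with the span offset and 379 without Hampshire low pig 3. The 1375 genes of the average effect became 679 without Hampshire high pig 9 and 2310 without Pietrain high pig 6, and the 2300 genes of the breeds at low loin weight became 109 without Hampshire low pig 2. KMT2C had too few counts to be tested at 10 counts in every pig, and SMYD1 had no span for the offset. No paired analysis was possible because the pig numbers name animals and the groups compared within a breed share none. Depth limits EZH2, with 14 to 70 counts per pig, and KMT2C in Hampshire high pigs, with 6 to 17. With 3 or 4 pigs per group, p-values measure the spread among these animals alone.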
